A study of Mus musculus with 6 samples.

Results

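The genes of the major histocompatibility complex (MHC) and of antigen presentation were followed in the aorta of mice given erythropoietin (EPO), a kidney hormone that stimulates the making of red blood cells. The members were all genes whose mouse symbol begins with H2-, the prefix of the mouse MHC, together with B2m, Tap1, Tap2, Tapbp, Cd74, Ciita, Nlrc5, Psmb8, Psmb9 and Psmb10, and they came to 55 of the 47643 genes of the count table. RNA sequencing was made on whole aortas of Apoe-/- mice, which lack apolipoprotein E and develop high plasma cholesterol and atherosclerosis, in a series that asks how EPO bears on abdominal aortic aneurysm. Both groups carried this deletion. The EPO group (n = 3 libraries) was injected intraperitoneally with recombinant human EPO at 5000 IU per kg per day for 4 weeks, a dose that the series calls medium, and the Vehicle group (n = 3) with saline. The age, sex and background strain of the mice, and thus their MHC haplotype, are not in the labels. Nothing in the labels ties each library to an animal of its own, so each p-value is set against the scatter of these 6 libraries. That scatter was above counting error. For the counts of pairs of libraries, chi-square per degree of freedom was 37.1 to 60.2 within Vehicle and 48.9 to 163 within EPO. Whether it lies between animals or may in part be technical was not tested.

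Classical class I molecules (class Ia, H2-K1 and H2-D1 here) are carried by nearly all nucleated cells and show peptides from inside the cell to CD8 T cells. Their heavy chain pairs with beta-2 microglobulin (B2m), the peptides are cut by the proteasome, in its immune form with Psmb8, Psmb9 and Psmb10, and the Tap1-Tap2 transporter and tapasin (Tapbp) load them. Class Ib molecules resemble them but vary little between individuals, and some serve as ligands of natural killer and unconventional T cells. Class II molecules show peptides from taken-up material to CD4 T cells and are made mainly by dendritic cells, B cells and activated macrophages, with the invariant chain Cd74 as escort. Nlrc5 and Ciita are the transactivators of class I and class II genes, and interferon gamma is the best known inducer of both.

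Levels are given as CPM, counts scaled to a common library size. Total counts ran from 23278649 to 38502430 per library, and 0 counts allow up to 0.129 CPM in the shallowest and 0.0779 CPM in the deepest from counting error alone. Contractile smooth muscle markers, which define the vessel wall, summed to 19571 to 27929 CPM in Vehicle and 7144 to 9128 CPM in EPO, with 6 of 6 lower. Skeletal muscle markers summed to 5.09 to 12.1 CPM in Vehicle and to 785, 1980 and 232 CPM in EPO 1, 2 and 3. Markers of macrophages summed to 2005, 3603 and 3983 CPM in Vehicle 1, 2 and 3 and to 9701, 4636 and 4183 CPM in EPO 1, 2 and 3. All 10 of them were highest in EPO 1, so EPO 1 stands apart. Of the 10, 2 passed the test (20%), both higher. Of all genes tested, 12.9% were called higher and 10.1% lower. B cell markers, 0 of 8 called, summed to 11.6 to 23 CPM in Vehicle and 14.4 to 35.5 CPM in EPO. For every bulk level below, fewer cells of a type and less RNA per cell cannot be told apart.

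Of the 55 members, 36 had enough counts to be tested, and 2 of these changed: H2-M2, a class Ib gene, fell, and Nlrc5 rose. That is 5.56% of the tested members, where 23.0% of all 16522 genes tested changed. The classical class I genes, B2m, the peptide transporter, the immunoproteasome and all class II genes missed the threshold (adjusted p under 0.05). CPM of the groups did not overlap for 6 of 36 members (16.7%), against 43.8% of all genes tested. The median log2 fold change of the tested members was 0.23, and that of all genes tested 0.01. Without EPO 1, the highest library for 22 of the 36, the median of the members was -0.01. With any other single library left out it was between 0.13 and 0.37. The count of changed members was 1 without Vehicle 1 or Vehicle 2, 4 without EPO 1, and 3 without EPO 2, and in a fit without EPO 1 and EPO 2, chosen after seeing the data, it was 1 (H2-M2).

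**Figure D1:**
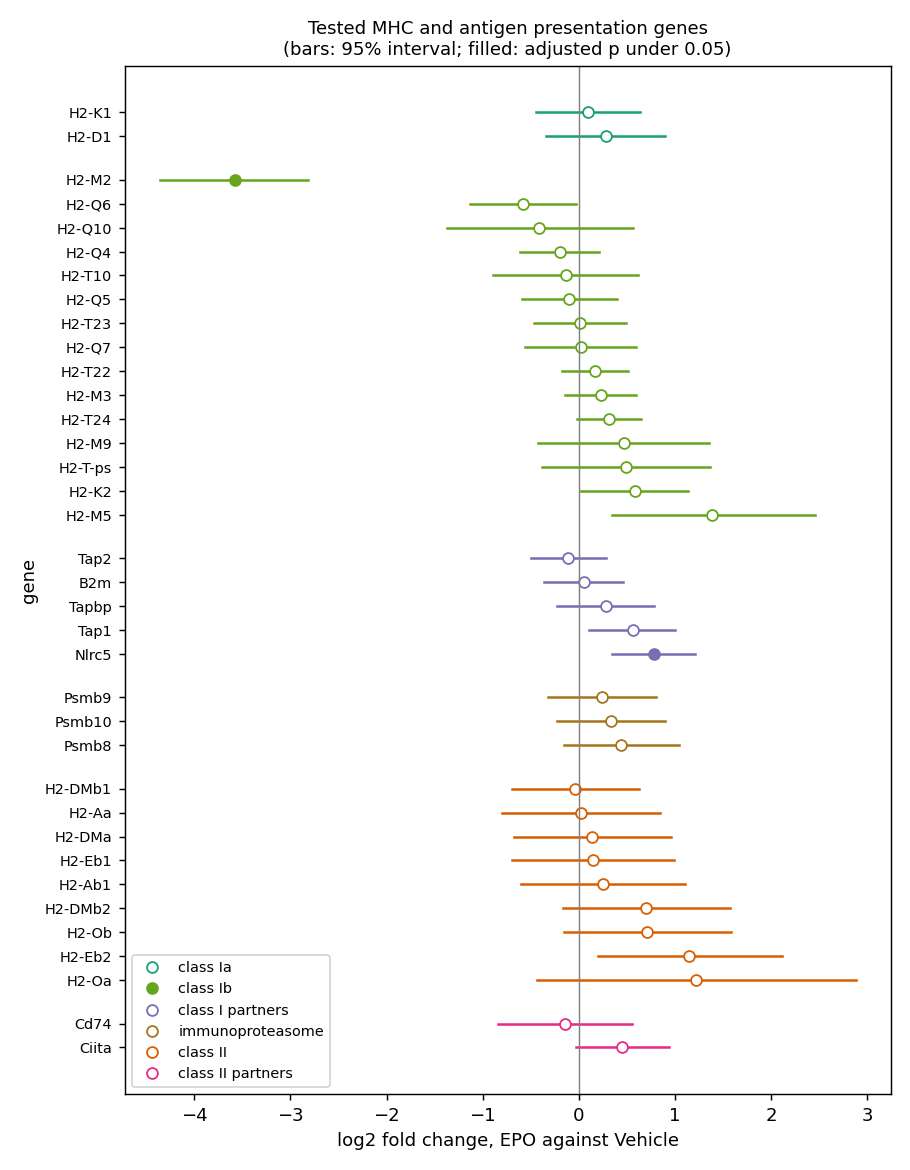
Log2 fold change (EPO against Vehicle, horizontal axis) of the 36 tested members, grouped by class on the vertical axis, with bars for the 95% interval of the fit and filled symbols for an adjusted p under 0.05. H2-M2 (-3.58) and Nlrc5 (0.78) are the filled symbols, and the wide bars of H2-Oa, H2-M5 and H2-Eb2 belong to genes under 2 CPM in every library.

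Promoters of the genes the results turn on are shown because class I and class II genes share promoter elements that Nlrc5 and Ciita act through. The RefSeq promoter table (GRCm38.p6) held 38 of the 55 members, without Nlrc5, Ciita, Cd74 and H2-Ab1. In the 250 bases before each start, 2 motifs were searched on both strands, GATTGG and GGGATTCCC. GATTGG is an inverted CCAAT box and the core of the Y element of class II genes. GGGATTCCC is the core of the enhancer A site of classical class I genes. The most upstream start of each gene was used, and no match of one motif overlapped one of the other. In the 180 bases printed here, 5′ to 3′ and ending just before the start, capitals mark either motif. H2-Aa lies at chr17:34287824-34288003, minus strand, H2-Eb1 at chr17:34305687-34305866, plus strand, H2-K1 at chr17:34000348-34000527, minus strand, H2-Q6 at chr17:35424670-35424849, plus strand, and H2-M2 at chr17:37483555-37483734, minus strand.
H2-Aa: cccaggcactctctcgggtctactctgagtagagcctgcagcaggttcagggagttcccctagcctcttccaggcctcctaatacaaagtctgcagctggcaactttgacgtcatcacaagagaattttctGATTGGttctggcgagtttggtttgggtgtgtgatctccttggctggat
H2-Eb1: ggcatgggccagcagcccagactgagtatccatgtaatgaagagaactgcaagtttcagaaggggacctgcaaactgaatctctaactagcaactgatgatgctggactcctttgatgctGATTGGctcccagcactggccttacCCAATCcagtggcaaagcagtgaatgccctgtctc
H2-K1: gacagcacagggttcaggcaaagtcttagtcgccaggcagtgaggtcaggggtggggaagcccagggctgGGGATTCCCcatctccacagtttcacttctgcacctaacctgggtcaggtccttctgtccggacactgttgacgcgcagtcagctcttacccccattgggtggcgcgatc
H2-Q6: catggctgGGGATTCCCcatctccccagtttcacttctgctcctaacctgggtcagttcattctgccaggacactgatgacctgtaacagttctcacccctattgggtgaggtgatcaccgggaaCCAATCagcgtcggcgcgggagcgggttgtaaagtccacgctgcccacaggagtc
H2-M2: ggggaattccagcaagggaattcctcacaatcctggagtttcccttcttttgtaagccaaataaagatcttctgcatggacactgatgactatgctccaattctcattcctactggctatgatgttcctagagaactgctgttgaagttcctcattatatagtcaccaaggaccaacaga
GATTGG on either strand was found in 27 of 38 member promoters (71.1%) and in 14.6% of the 32851 promoters of the table. Members too low to test, such as the H2-M10 genes, are among the 38. It was in 7 of 8 class II promoters, starting 49 bases before the start in H2-Aa and 60 in H2-Eb1, and in 15 of 21 class Ib promoters. Within 180 bases, each class II match included GATTGG as written. The class Ib matches and that of H2-D1 read CCAATC, joined by GATTGG in H2-T22. GGGATTCCC was in 4 member promoters (10.5%), those of H2-K1, H2-D1, H2-Q6 and H2-Q7, and in 99 promoters of the whole table (0.301%). Neither run of letters is in the window of H2-M2, the member that fell. Both were also absent from the windows of H2-M3, H2-M5 and H2-Q10, class Ib genes that were tested and not called. ATTGG after another base was not marked, as in H2-K1 (cattggg) and H2-Q6 (tattggg). Nor was CCAAT before another base, as in H2-M2 (ccaatt). An unmarked window, that of H2-M2 included, may thus still hold a CCAAT box on either strand. CCAATC, as in H2-Q6, is the motif on the other strand and is not marked as a Y element. A match is a description of letters and not evidence of binding.

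The classical class I genes did not pass the test. H2-K1 (ENSMUSG00000061232, GRCm38 chromosome 17, 33996017 to 34000347) stood at 757, 805 and 957 CPM in Vehicle 1, 2 and 3 and at 1164, 650 and 881 CPM in EPO 1, 2 and 3. The groups overlapped, with EPO holding the highest and the lowest library (log2 fold change 0.10, 95% interval -0.45 to 0.64, edgeR adjusted p = 0.798). H2-D1 (chromosome 17, 35262730 to 35267499) was at 1006, 1025 and 1239 CPM in Vehicle and 1856, 947 and 1162 CPM in EPO. It overlapped in the same way, with EPO 1 above and EPO 2 below all Vehicle libraries (0.28, -0.34 to 0.90, adjusted p = 0.488). B2m, on chromosome 2 (122147686 to 122153083), ranged from 818 to 1027 CPM in Vehicle and from 824 to 1047 CPM in EPO (0.05, -0.36 to 0.46, adjusted p = 0.858). Missing the threshold does not show that the levels were equal, and each interval gives the changes that remain possible. Per kilobase of exon, B2m had the highest mean level of these in Vehicle (1088 CPM per kb), before H2-D1 (423) and H2-K1 (286).

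**Figure D2:**
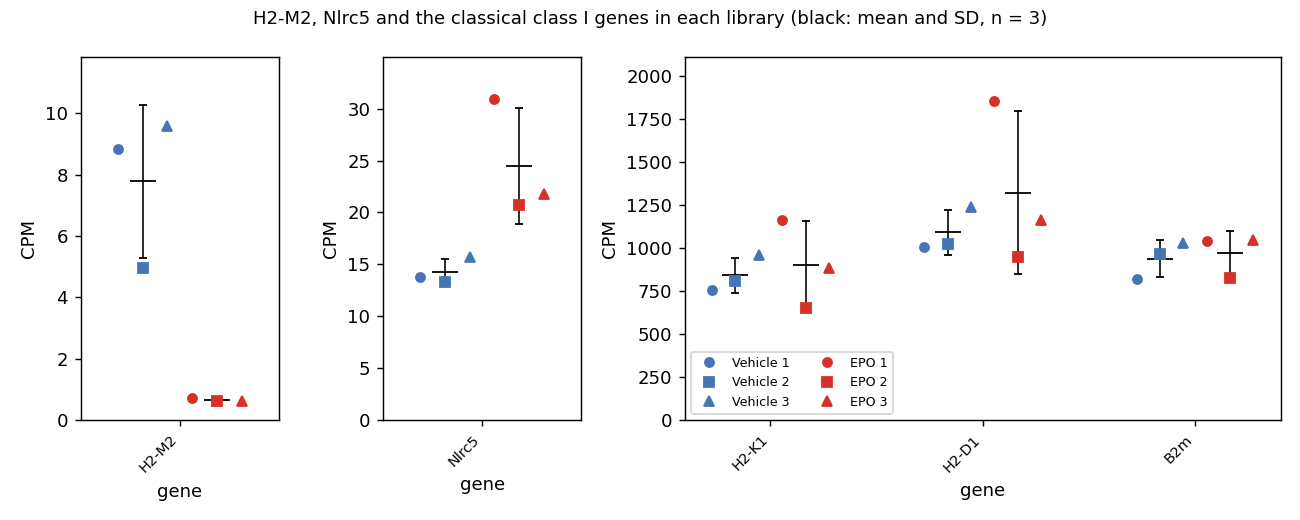
CPM (vertical axis, from 0) of H2-M2, Nlrc5, H2-K1, H2-D1 and B2m in each library, with blue symbols for Vehicle, red for EPO and black marks for the mean and SD of 3 libraries. H2-M2 is between 4.94 and 9.59 in Vehicle and between 0.601 and 0.725 in EPO, Nlrc5 is higher in every EPO library, and the groups overlap for the other 3 genes.

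Nlrc5, the transactivator of class I genes, rose. Nlrc5 (ENSMUSG00000074151, chromosome 8, 94434356 to 94527272) stood at 13.8, 13.3 and 15.7 CPM in Vehicle 1, 2 and 3 and at 30.9, 20.7 and 21.8 CPM in EPO 1, 2 and 3. Every EPO library was above every Vehicle library, and the rise was 1.71-fold (14.3 ± 1.26 to 24.5 ± 5.6 CPM, SD, n = 3 each, log2 fold change 0.78, SE 0.18, edgeR adjusted p = 0.0231). The call was lost without Vehicle 1 (log2 fold change 0.72, adjusted p = 0.0909), Vehicle 2 (0.71, 0.0866) or both EPO 1 and EPO 2 (0.61, 0.0837), and it held without EPO 1 (0.56, 0.0235). On the opposite strand Nlrc5 shares exon positions with 9330175E14Rik, which had 22 to 44 counts in Vehicle and 40 to 66 in EPO, against 318 to 455 and 610 to 1108 counts of Nlrc5.

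The peptide transporter, tapasin and the immunoproteasome did not pass, and all 6 genes were highest in EPO 1. Tap1, a subunit of the peptide transporter, was at 43.9, 39.1 and 52.5 CPM in Vehicle and 76.1, 50.1 and 73.2 CPM in EPO. Only EPO 2 fell within the Vehicle range (log2 fold change 0.56, 0.11 to 1.0, edgeR adjusted p = 0.0742), and without EPO 2 Tap1 passed (0.73, adjusted p = 0.0306). Its partner Tap2 averaged 44 ± 2.05 CPM under saline and 40.9 ± 8.79 under EPO (SD, n = 3 each, log2 fold change -0.11, adjusted p = 0.682). Tapbp, tapasin, had 221 to 249 CPM in Vehicle and 378, 214 and 255 CPM in EPO (0.28, adjusted p = 0.389). The catalytic immunoproteasome subunits Psmb8, Psmb9 and Psmb10 had log2 fold changes of 0.44, 0.24 and 0.33 (adjusted p = 0.248, 0.506 and 0.361), and all 3 were highest in EPO 1. Exons of Tap1 and Psmb9 overlap on opposite strands, and the strand setting of the counting is unknown, so their counts are uncertain where they meet.

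Class Ib genes were 30 of the members, of which 15 were tested, 1 fell and none rose at an adjusted p under 0.05. Of all genes tested, 10.1% were called lower and 12.9% higher. H2-M2, H2-K2, H2-M5 and H2-Q6 were the 4 that had an unadjusted p under 0.05 in the same edgeR fit. That held for 6160 of all 16522 genes tested. The median log2 fold change of the tested class Ib genes was 0.02. H2-M2 (ENSMUSG00000016283, chromosome 17, 37480851 to 37483552, minus strand) had 203, 127 and 278 counts in Vehicle and 26, 18 and 20 in EPO, or 8.82, 4.94 and 9.59 against 0.725, 0.611 and 0.601 CPM. The groups were far apart and the EPO libraries close together, a 12-fold fall (log2 fold change -3.58, SE 0.33, 95% interval -4.36 to -2.82, edgeR adjusted p = 0.00167). H2-M2 kept its call in every alternative that was run, with log2 fold changes between -3.84 and -3.41. None of its 125-base transcript stretches occurs in another annotated gene. In the same libraries white adipocyte markers, 3 of 6 lower, summed to 4025, 6787 and 2732 CPM in Vehicle and 2535, 2285 and 1821 CPM in EPO, and smooth muscle markers fell as given above. Their part in the fall of H2-M2 was not tested.

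None of the other 3 tested M genes of the MHC passed. H2-M3, which presents N-formylated peptides of bacteria and mitochondria, averaged 21.3 ± 2.19 CPM under saline and 24.9 ± 4.05 under EPO (SD, n = 3 each, log2 fold change 0.23, edgeR adjusted p = 0.337). H2-M5 was at 0.174, 0.428 and 0.345 CPM in Vehicle and 0.558, 1.02 and 0.962 CPM in EPO. These groups did not overlap, on 4 to 32 counts per library, and H2-M5 missed the threshold (1.39, adjusted p = 0.0609) except without EPO 1 (1.61, adjusted p = 0.0405). For H2-M9 the libraries held 38, 94 and 50 counts (Vehicle) and 98, 122 and 95 counts (EPO) (0.47, adjusted p = 0.414).

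Among the Q genes, H2-Q6 and H2-Q7, which encode Qa-2 antigens, did not pass. H2-Q6 was at 81.3, 76.3 and 123 CPM in Vehicle and 76.4, 48.3 and 62.8 CPM in EPO, overlapping through EPO 1 (log2 fold change -0.58, -1.13 to -0.03, edgeR adjusted p = 0.115). H2-Q7 averaged 66.7 ± 21.4 and 67.7 ± 14.1 CPM (SD, n = 3 each, 0.02, adjusted p = 0.964). H2-Q4 (-0.20), H2-Q5 (-0.10) and H2-Q10 (-0.41), the last a secreted class I molecule best known from liver, had adjusted p values of 0.44 to 0.774. Between 0.0386% and 8.86% of the 125-base stretches of these 5 Q genes occur in other genes, most in H2-Q5 and H2-Q7, so how the authors' counting split shared reads can move their values.

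Of the T genes, H2-T23, which encodes Qa-1, the ligand of the NKG2A receptor of natural killer cells, had the most counts. It stood at 147, 150 and 191 CPM in Vehicle and 212, 135 and 144 CPM in EPO, with EPO 1 highest and EPO 2 lowest (log2 fold change 0.01, -0.47 to 0.49, edgeR adjusted p = 0.979). H2-T22, a ligand of some gamma-delta T cells, averaged 76.6 ± 6.04 and 86.2 ± 13.3 CPM (SD, n = 3 each, 0.17, adjusted p = 0.435). H2-T24 differed little in size but without overlap, with 8.63 to 9.33 CPM in Vehicle and 10.9 to 11.6 CPM in EPO (0.31, -0.02 to 0.65, adjusted p = 0.155). H2-T10 (-0.13), H2-T-ps (0.49) and H2-K2 (0.58), annotated as pseudogenes, had adjusted p values of 0.802, 0.382 and 0.12.

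No class II gene passed the test, where 12.9% of all genes tested were called higher and 10.1% lower. Of 12 members 9 had enough counts to be tested. Here too, missing the threshold does not show that the levels were equal. In this edgeR fit 1 of the 9 had an unadjusted p under 0.05, against 6160 of all 16522 genes tested. DESeq2 and limma-voom called none of the 9 as well. The values of the main chains were set by single libraries. H2-Aa, the alpha chain of I-A (ENSMUSG00000036594, chromosome 17, 34282744 to 34287823), stood at 196, 283 and 286 CPM in Vehicle 1, 2 and 3 and at 416, 165 and 197 CPM in EPO 1, 2 and 3. H2-Ab1, the beta chain of I-A, stood at 239, 310 and 331 CPM in Vehicle and 575, 212 and 260 CPM in EPO. H2-Eb1, the beta chain of I-E, stood at 212, 298 and 324 CPM in Vehicle and 500, 192 and 231 CPM in EPO. In all 3 EPO 1 was highest and EPO 2 lowest, and the groups overlapped, with log2 fold changes of 0.02 (95% interval -0.80 to 0.84), 0.25 (-0.60 to 1.10) and 0.15 (-0.70 to 0.99) and edgeR adjusted p values of 0.971, 0.658 and 0.804. Without EPO 1 the log2 fold changes were -0.51, -0.32 and -0.41 (adjusted p = 0.115, 0.232 and 0.198), so the sign for these chains depended on that library. H2-Aa was also below 0 without Vehicle 1 (-0.17), with libraries scaled by total counts alone (-0.03) and in limma-voom (-0.08), and H2-Eb1 without Vehicle 1 (-0.05).

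**Figure D3:**
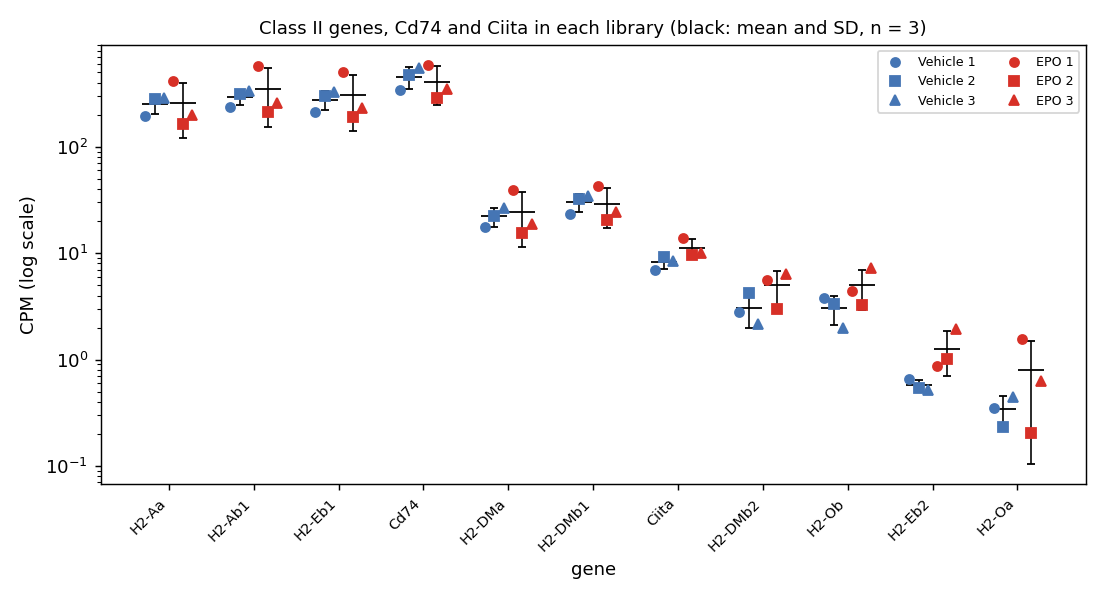
CPM (vertical axis, log scale) of the 9 tested class II genes, Cd74 and Ciita in each library, with blue symbols for Vehicle, red for EPO and black marks for the mean and SD of 3 libraries. EPO 1 (red circle) is the highest library for H2-Aa, H2-Ab1, H2-Eb1, Cd74, H2-DMa and H2-DMb1, while EPO 3 (red triangle) is the highest for H2-DMb2, H2-Ob and H2-Eb2.

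Cd74, the invariant chain (ENSMUSG00000024610), had 340, 469 and 548 CPM in Vehicle and 592, 289 and 347 CPM in EPO, the same order of libraries as the chains it escorts (log2 fold change -0.14, -0.84 to 0.55, edgeR adjusted p = 0.762, and -0.52 without EPO 1, adjusted p = 0.138). It was above 0 without Vehicle 3 (0.01) or EPO 2 (0.06). Ciita, the class II transactivator (chromosome 16, 10480059 to 10528418), was at 6.95, 9.14 and 8.52 CPM in Vehicle and 14, 9.68 and 10 CPM in EPO. Its groups did not overlap, but it missed the threshold (0.45, -0.03 to 0.94, adjusted p = 0.158), and without EPO 1 its log2 fold change was 0.25 (adjusted p = 0.333). Exons of Ciita overlap Dexi on the opposite strand, which was also highest in EPO 1 (1604 counts, and 501 to 718 in the other libraries).

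H2-DMa and H2-DMb1, the chains of the peptide exchange factor for class II, followed the same libraries, at 22.2 ± 4.55 and 24.5 ± 13 CPM for H2-DMa and 30 ± 5.77 and 29.2 ± 11.8 CPM for H2-DMb1 (Vehicle and EPO, SD, n = 3 each, log2 fold changes 0.14 and -0.04). H2-DMa shares exon positions with Brd2 on the opposite strand, a gene of 6148 to 9314 counts against 403 to 1411 of H2-DMa, so its level is uncertain. Macrophage markers were, like these genes, highest in EPO 1, but their sums in EPO 2 and EPO 3 were above those of all Vehicle libraries, where H2-Aa, H2-Ab1 and H2-Eb1 in EPO 2 were below all of them. Lyz2 was the largest part of the sum in EPO 3, at 2146 of 4183 CPM, and stood at 2174 CPM in Vehicle 3. Of the 10 markers, 6 were above Vehicle without overlap, as were 22.9% of all genes tested. Lyz2, Csf1r and C1qc overlapped, and so did Mertk, which in EPO 2 and EPO 3 (76.1 and 67.5 CPM) was below all Vehicle libraries. The 9 dendritic cell markers summed to 74.4, 105 and 108 CPM in Vehicle and 167, 70.2 and 89.3 CPM in EPO, and none of the 9 passed the test. Most of that sum was Itgax, the CD11c gene that macrophages also express, at 42.5, 69.1 and 78.8 CPM in Vehicle and 124, 37.3 and 50.1 CPM in EPO. The other 8 markers did not share one order, and EPO 1 was the highest library for 4 of the 9. The part of these cells in the class II values was not tested.

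For 3 other class II genes EPO 3 was the highest library and Vehicle 3 the lowest, and the order between them differed from gene to gene. H2-Ob, a chain of H2-O, the inhibitor of H2-DM known from B cells, stood at 3.78, 3.34 and 2 CPM in Vehicle and 4.41, 3.29 and 7.21 CPM in EPO (log2 fold change 0.71, edgeR adjusted p = 0.205). H2-DMb2, a DM beta chain gene that shares 6.55% of its stretches with H2-DMb1, stood at 2.78, 4.24 and 2.14 CPM in Vehicle and 5.58, 2.99 and 6.34 CPM in EPO (0.70, adjusted p = 0.21). H2-Eb2 stood at 0.652, 0.544 and 0.518 CPM in Vehicle and 0.865, 1.02 and 1.92 CPM in EPO, without overlap. It did not pass with all libraries (1.15, adjusted p = 0.0797), and it did without EPO 1 (1.36, adjusted p = 0.0473). All 3 were highest in EPO 3, the library in which 7 of 8 B cell markers were highest and their sum was 35.5 CPM, against 11.6 to 23 CPM in the other libraries. Their part was not tested. H2-Oa, the other chain of H2-O, had 6 to 13 counts in Vehicle and 56, 6 and 21 in EPO (1.22, -0.43 to 2.88, adjusted p = 0.252).

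The 19 members that were not tested had few or no counts. H2-M10.3, H2-M10.4, H2-M10.5, H2-M10.5-ps1 and H2-M10.6 had 0 counts in all 6 libraries. The others had between 1 and 18 counts over the 6 libraries, most in H2-M11 and H2-M6-ps. H2-Ea-ps, the gene of the I-E alpha chain, had 4 counts, all in Vehicle 3. The annotation lists it as a polymorphic pseudogene, and mice of the H2-b haplotype, such as the reference strain C57BL/6J, are known to make no I-E alpha chain. H2-Ke6 encodes a dehydrogenase and no MHC chain. It had 2 counts, and 58% of its stretches are also annotated in Gm20427, so a read there may have been assigned to neither gene.

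Genes that act before and beside the members were taken from lists of the pathway. Of 62 tested genes in 8 lists, 13 rose and 2 fell (24.2%, near the 23.0% of all genes), and without Vehicle 1, Vehicle 2 or both EPO 1 and EPO 2 the rises numbered 4, 5 and 6. Of 16 tested interferon-induced genes, 6 rose and none fell (37.5% called, against 23.0% of all genes tested): Irf7, Mx1, Ifit1, Oas1a, Isg15 and Cxcl10. Of these 6, Cxcl10 and Isg15 lost the call without Vehicle 1 or Vehicle 2, Cxcl10 also without EPO 3, and Cxcl10 and Oas1a without both EPO 1 and EPO 2. Irf7, a transcription factor of the type I interferon response, rose 2.45-fold from 21.6 ± 2.48 to 52.8 ± 14.4 CPM, Mx1, an antiviral GTPase, 2.91-fold from 3.14 ± 0.779 to 9.16 ± 2.1 CPM, and Ifit1 2.15-fold from 12.4 ± 1.82 to 26.7 ± 5.84 CPM (SD, n = 3 each, edgeR adjusted p = 0.00607, 0.00774 and 0.0084). The GTPases best known as interferon gamma targets did not pass: Gbp2, Gbp3, Gbp5, Gbp7, Iigp1, Igtp, Irgm1 and Tgtp1 had log2 fold changes between -0.49 and 0.38. Cxcl9, a chemokine also induced by interferon gamma, and Ifit3 were above 0 but not called (0.64 and 0.42, edgeR adjusted p = 0.137 and 0.116). EPO 3 was the highest library for 9 of the 16 genes, Vehicle 3 for 7 and EPO 1 for 0, where EPO 1 was the highest for 6 of 9 class II genes. Neutrophil markers, of which 1 of 5 tested was called higher, were highest in EPO 3 too, at a sum of 367 CPM against 11.4 to 62.7 CPM in the other libraries, and their part was not tested.

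Of 9 tested genes of interferon gamma signalling, 3 rose and none fell (33.3% called, against 23.0% of all genes tested). Jak1, a kinase of the receptor, rose 1.51-fold from 106 ± 8.09 to 161 ± 14.7 CPM, Irf8, a transcription factor of myeloid cells, 2.17-fold from 39.9 ± 7.55 to 86.6 ± 30.6 CPM, and Socs1, a feedback inhibitor, 4.14-fold from 3.44 ± 0.473 to 14.2 ± 10.7 CPM with 26.5 CPM in EPO 1 (SD, n = 3 each, edgeR adjusted p = 0.0163, 0.0224 and 0.0245). Without Vehicle 1 or Vehicle 2 none of the 3 passed, and without Vehicle 3 Irf8 alone passed. Jak1 and Irf8 also lost the call without both EPO 1 and EPO 2 (adjusted p = 0.113 and 0.0596), and Socs1 in limma-voom (0.0666). Macrophage markers were highest in EPO 1 as well, and their part in Irf8 and Socs1 was not tested. Irf1, a transcription factor induced by interferon gamma that acts on MHC class I promoters, did not pass (log2 fold change 0.14, adjusted p = 0.517). Ifng itself, with 28 counts over the Vehicle and 30 over the EPO libraries, did not reach the count filter. The promoter factors Rfx5, Rfxap, Rfxank, Nfya, Nfyb, Nfyc and Creb1 had log2 fold changes between -0.14 and 0.19. In edgeR 0 of 7 passed, with 0 at an unadjusted p under 0.05, where 6160 of all 16522 genes tested had such a p.

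Of 7 class II processing genes, 2 rose (28.6% called, against 23.0% of all genes tested). Ifi30, the lysosomal thiol reductase, went from 64.2 ± 14 to 116 ± 24.5 CPM, and March1, the ubiquitin ligase that removes class II and CD86 from the surface, from 9.62 ± 3.03 to 17.7 ± 1.96 CPM (SD, n = 3 each, edgeR adjusted p = 0.0286 and 0.0414). Both lost the call without Vehicle 1, Vehicle 2, EPO 1 or EPO 3, and without both EPO 1 and EPO 2, and March1 also without EPO 2 (adjusted p = 0.0865). The lysosomal proteases Ctss, Lgmn, Ctsb and Ctsd were highest in EPO 1 with log2 fold changes of 0.59 to 0.89, and Ctsl had -0.43. None of these 5 was called. Peptide loading genes (Calr, Canx, Pdia3, Tapbpl, Erap1) and the proteasome list (Psme1, Psme2, Psme3, Psmb5, Psmb6, Psmb7) had no call. In edgeR 0 of 5 and 1 of 6 had an unadjusted p under 0.05, as did 6160 of all 16522 genes tested.

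**Figure D4:**
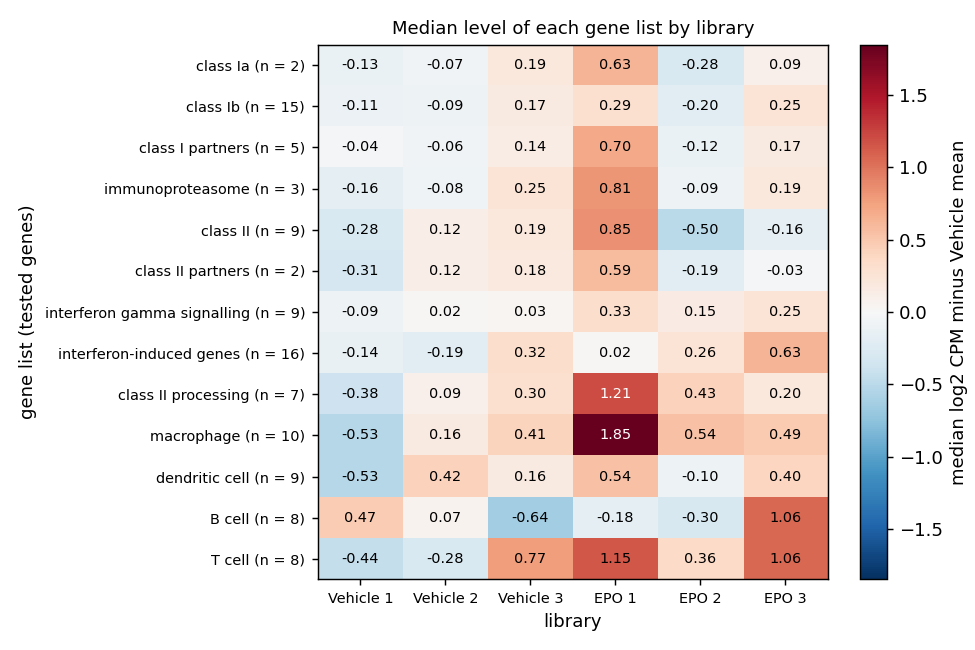
Median over the tested genes of each list (rows) of the log2 CPM minus the Vehicle mean, in each library (columns), with red above and blue below the Vehicle mean and the value in each cell. Class II is 0.85 in EPO 1 and -0.50 and -0.16 in EPO 2 and EPO 3, macrophage markers are above 0.45 in all 3, and interferon-induced genes are highest in EPO 3 (0.63).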

How the data were processed

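Per the labels' protocols, library preparation used the NEBNext Ultra RNA kit, not described there as marking strand, followed by paired-end sequencing. Per the submitters' processing notes, CASAVA 1.8 and TopHat2 2.0.6 were used with build mm10; the counting tool, strand setting and annotation were not given in the sources used here. Values in the table the authors deposited are raw counts per Ensembl gene for 6 libraries, without normalization; columns named Con were read as Vehicle. Symbols and coordinates came from GENCODE M21 (GRCm38), which matched 47224 of 47643 IDs.

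With R 4.3.3 and edgeR 4.0.16, low genes were removed (filterByExpr; 16522 kept), libraries scaled by TMM, and EPO compared with Vehicle by a two-sided quasi-likelihood test adjusted by Benjamini-Hochberg over all genes tested. CPM uses TMM-scaled library sizes. Intervals at 95% come from the unshrunken coefficient. Sequence sharing is the percent of a gene's 125-base transcript stretches found in another gene. The script was tested on simulated data. The alternatives were other scalings and filters, DESeq2 1.42.0, limma-voom (limma 3.58.1), a replicate block and each library left out. For a count of 0 the upper limit is 3 counts; limits cover counting error only. Members and lists were chosen with earlier results of these data known, and all tested members may be named. Of each pathway list the called members were named, at most 3 in full. Members named without a call, and genes that complete a short list, were chosen after their values were seen.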

Additional observations from a re-analysis of the deposited data

How the results depend on the processing

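Over all alternatives, 493 refits of single members stayed on their side of the threshold, 3 lost the call, all of Nlrc5, and 4 gained one: Tap1 with a replicate block (log2 fold change 0.54, adjusted p = 0.0495) and without EPO 2, and H2-Eb2 and H2-M5 without EPO 1. No called member changed sign. The number of changed genes was 3804 with all libraries, between 1635 and 4281 with single libraries left out, 1548 without EPO 1 and EPO 2, and 2884 with the block. The higher members numbered 1 with all libraries, 0 to 3 with single libraries left out, 2 with the block and 0 without EPO 1 and EPO 2. The class II members higher numbered 0, and 0 to 1 with single libraries left out. The pathway genes higher numbered 13, 4 to 14 with single libraries left out and 6 without EPO 1 and EPO 2, and those lower 2, 1 to 3 with single libraries left out, 4 with DESeq2 and 0 without EPO 1 and EPO 2. With the block Ifi30, March1 and Irf8 lost their calls (adjusted p = 0.0671, 0.0771 and 0.058), and H2-Aa was at -0.09. Replicate numbers are shared between groups, but deviations of same-numbered libraries correlated at -0.01, -0.01 and 0.13 across genes, so the numbers were not taken as pairs; libraries 1 and 2 did not correlate best with their own number. Leaving out a library also leaves fewer samples. At these depths the members under about 1 CPM are limited by counting.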

Other observations

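In 2 further lists, of costimulation genes and of class I-like genes outside the MHC, 33.3% of the tested genes were called, against 23.0% of all genes tested. Of 6 tested costimulation genes, 2 rose: Cd80 from 2.59 ± 1.17 to 9.04 ± 3.93 CPM and Cd40 from 3.85 ± 0.0577 to 7.41 ± 1.14 CPM (SD, n = 3 each, edgeR adjusted p = 0.0258 and 0.0155), both ligands or receptors by which antigen-presenting cells and T cells signal to each other. Cd80 lost the call without Vehicle 1, Vehicle 3 or EPO 2 (adjusted p = 0.0736, 0.0613 and 0.0732) and Cd40 without Vehicle 1 or Vehicle 2 (0.0658 and 0.0599). Cd86 missed the threshold (log2 fold change 0.60, adjusted p = 0.16). Of 6 tested class I-like genes, 2 fell: Mr1, which presents vitamin B metabolites to MAIT cells, from 45.5 ± 2.7 to 29.5 ± 3.11 CPM, and Procr, the endothelial protein C receptor, from 43.2 ± 3.13 to 29.8 ± 0.807 CPM (adjusted p = 0.0124 and 0.0144). Mr1 lost the call without Vehicle 1 (0.0553) and Procr without Vehicle 2 (0.0528) or Vehicle 3 (0.0542). Without both EPO 1 and EPO 2 none of these 4 passed (adjusted p = 0.0561 to 0.119). Cd1d1, which presents lipids to NKT cells, was at 51.1, 70.8 and 26.6 CPM in Vehicle and 24, 26.9 and 29.8 CPM in EPO (-0.88, adjusted p = 0.0859).

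Class II genes and macrophage markers were also set against each other within libraries, a comparison chosen after seeing the data. Counts of H2-Ab1 per count of Adgre1, a macrophage marker, were 6.39, 4.26 and 5.68 in Vehicle and 2.38, 1.65 and 2.08 in EPO, without overlap. Adgre1 itself rose (56.2 ± 17.7 to 165 ± 66.2 CPM, SD, n = 3 each, edgeR adjusted p = 0.0161), and the ratio to Adgre1 was below Vehicle in this way for 80.5% of all genes tested. Per count of Csf1r the values of H2-Ab1 were 1.74, 1.5 and 1.94 in Vehicle and 1.7, 1.06 and 0.949 in EPO, which overlap, and 40% of all genes tested lay below Vehicle by this ratio. Per count of C1qa, H2-Ab1 was at 1.27, 0.955 and 0.845 in Vehicle and 0.369, 0.494 and 0.603 in EPO, with 47.8% of all genes below. Per count of Fcgr1, which also rose, 81.7% of all genes lay below, and per count of Mertk, with log2 fold change -0.15, 9.89%, and H2-Ab1 overlapped between the groups by the latter. Over all 10 macrophage markers, the ratio was below Vehicle without overlap for 7 with H2-Ab1, 7 with H2-Eb1, 8 with H2-Aa and 9 with Cd74. It overlapped for the rest. The share of all genes below Vehicle ran from 9.89% to 81.7% between markers.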
